A study of Mus musculus with 16 samples.

Results

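A set of 43 interferon-stimulated antiviral effector genes was examined in bone marrow-derived macrophages (BMDM) of WT mice and of mice that lack Camkk2, the gene of a kinase that calcium and calmodulin switch on. The members were matched by gene symbol to the array's probe annotation, and each member with a match had 1 probe set. This gave 41 measured members among 19505 genes with a symbol. The helicase gene Ddx60 and the interferon-induced Ifi44 had no probe set with their symbol and were not analysed here.

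The series compared 4 groups with 4 biological replicates and 4 arrays each, 16 arrays in all, under 2 genotypes and 2 media. The genotypes were Camkk2 +/+ (WT) and Camkk2 -/-, a deletion carried by every cell of the mouse. The methods mention at least 4 backcrosses of mice to a C57BL strain. The paper also calls its tumor-bearing hosts of both genotypes C57BL mice. Neither statement names the mice behind the arrays, and the labels give no strain. Whether strain differences that remained after backcrossing add to the differences between genotypes was not tested. Marrow was taken from 16 female mice per genotype at 10 to 12 weeks of age. Every culture was grown for 5 days with 30% L929-conditioned medium, which supplies CSF1, the cytokine that macrophages need. CM cultures also had the supernatant of E0771 cells, which are mouse breast cancer cells, at 20% by the sample labels and 25% by the methods. RM cultures had none of it and, by the methods, a matching volume of fresh RPMI medium with serum. The labels put the share of cells stained for both macrophage antigens above 95%. The paper's results also call the cells negative for Ly6C and dim or negative for CD11c, with a smaller minimum share. It is not said whether the RM and CM cultures with the same replicate number shared marrow, and p-values measure the spread between these cultures.

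Type I interferons are cytokines that a cell releases when it senses viral nucleic acid or other danger. They bind a receptor made of the IFNAR1 and IFNAR2 chains, and the kinases JAK1 and TYK2 then activate STAT proteins, among them STAT2, which joins IRF9 in a complex that binds the interferon-stimulated response element (ISRE) in promoters. The genes switched on in this way include enzymes that tag viral proteins, proteins that destroy or edit viral RNA, GTPases that trap viral particles, and membrane proteins that block entry or release. Macrophages are known to express many of them at a resting level and to raise them quickly after contact with interferon.

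Promoter letters are shown first, because the members are known for carrying this element. RefSeq promoters of build GRCm38.p6, reaching from 250 bases before a start site to 50 after it, were at hand for 33 of the 43 genes, 31 of them measured. The ISRE core was searched as GAAA, any 2 bases and GAAA again, and the gamma-activated site (GAS) core, an element of the response to interferon gamma, as TTC, any 3 bases and GAA, both on either strand, and matches could overlap. An ISRE core was found in 11 of the 31 measured members (35.5%) and in 3.99% of all 27025 genes with a promoter. A GAS core was found in 6 of the 31 (19.4%), against 9.55% of all genes. A match is a run of letters and not a measured binding site. The promoter of Isg15, whose product is the ubiquitin-like modifier ISG15, held 3 overlapping matches that ended 56 bases before the start. Its 250 bases before the start lie on the minus strand at chr4:156200819-156201068, with the matches in capitals.
Isg15: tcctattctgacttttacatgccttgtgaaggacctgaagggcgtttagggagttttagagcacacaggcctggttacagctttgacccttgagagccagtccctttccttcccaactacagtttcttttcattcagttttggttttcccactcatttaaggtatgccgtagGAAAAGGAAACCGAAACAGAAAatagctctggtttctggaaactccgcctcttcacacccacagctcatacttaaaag

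Shorter stretches around the ISRE core are given for members whose values are described below, each read along its gene, with the match in capitals. Bst2 lies on the minus strand (chr8:71537572-71537617), Rsad2 on the minus strand (chr12:26456548-26456587), Tdrd7 on the plus strand (chr4:45972091-45972130) and Lgals9 on the minus strand (chr11:78984955-78984994). Trim30a (chr7:104465205-104465244) and Trim30d (chr7:104507866-104507905) both lie on the minus strand.
Bst2: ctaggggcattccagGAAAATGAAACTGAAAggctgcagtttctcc
Rsad2: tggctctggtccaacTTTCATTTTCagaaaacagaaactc
Tdrd7: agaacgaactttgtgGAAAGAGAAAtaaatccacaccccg
Lgals9: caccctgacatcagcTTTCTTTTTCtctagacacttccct
Trim30a: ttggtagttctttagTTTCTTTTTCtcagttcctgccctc
Trim30d: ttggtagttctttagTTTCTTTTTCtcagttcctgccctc
The stretches of Trim30a and Trim30d have the same letters, and the longest identical run of their promoters was 118 of 250 bases. Probe sets of such closely related genes may share signal, which holds for Mx1 and Mx2 too. Isg20, which had the largest rise in CM, carried a GAS core on the plus strand at chr7:78913336-78913374, 64 bases before its start, and no ISRE core in this window.
Isg20: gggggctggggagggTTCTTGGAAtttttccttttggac

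The deposited log2 signals had medians over genes of 5.77 to 5.91 per array. The antigenomic probe sets, which fit no mouse transcript, had a median of 5.37, used here as background, and every measured member lay above it in every array. Camkk2 ranged from 9.11 to 9.83 in the 8 WT arrays and from 6.07 to 8.15 in the 8 Camkk2-/- arrays, and the exons behind its probe set are not stated. The macrophage marker genes Itgam and Adgre1, whose products are the antigens stained in the study, had group means of 16.2 to 16.8 and 15.2 to 16.3. With 4 arrays per group, precision is bounded by the array number.

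The mean over the 41 members, taken for each array as log2 signal minus each gene's mean over the 16 arrays, gives an outline of the set. In WT RM replicates 1 to 4 it was −1.33, −1.19, −0.45 and −0.67. In Camkk2-/- RM it was −1.09, −0.50, −0.38 and −0.43. With CM it was 0.50, 0.42, −0.53 and 0.36 in WT and 1.40, 1.40, 1.39 and 1.09 in Camkk2-/- BMDM. The 4 Camkk2-/- CM arrays therefore lay above all others, the RM arrays of both genotypes overlapped, and WT CM replicate 3 lay among the RM arrays. The group means were −0.91 ± 0.42 (SD, n = 4) in WT RM, −0.60 ± 0.33 in Camkk2-/- RM, 0.19 ± 0.48 in WT CM and 1.32 ± 0.15 in Camkk2-/- CM.

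**Figure D1:**
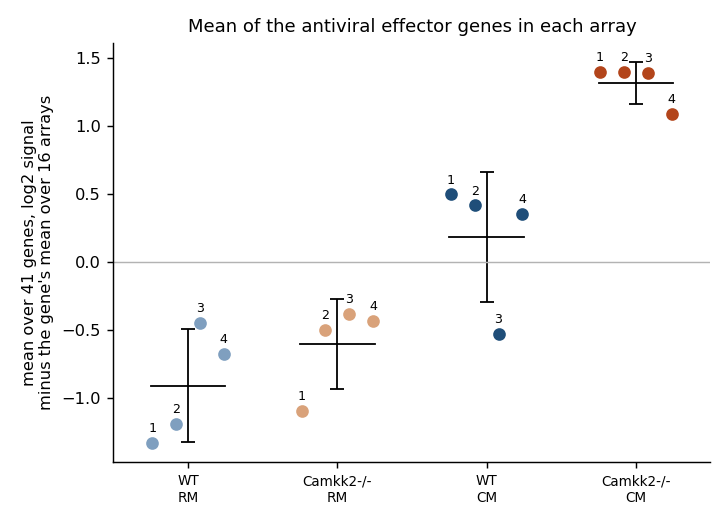
Mean over the 41 antiviral effector genes in each of the 16 arrays (log2 signal minus each gene's mean over the 16 arrays, y axis) by group (x axis), with the replicate number at each point and bars for the group mean and SD of 4 arrays. The Camkk2-/- CM arrays lie between 1.09 and 1.40, above all others, and WT CM replicate 3 at −0.53 lies among the RM arrays.

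In CM, 30 of the 41 members were higher in Camkk2-/- than in WT BMDM and 0 were lower (limma, adjusted p under 0.05), where 2.7% of all genes were higher and 1.79% lower. Without adjustment of p there were 38 higher and 0 lower, against 7.6% of all genes higher. The median log2 fold change of the members was 1.03, against −0.02 over all genes. Of the 41 values 40 were above 0, as were 47.2% of those of all genes, with Bst2 as the one below. For 34 members all 4 Camkk2-/- arrays lay above all 4 WT arrays, an order that 5.6% of all genes had. Those that did not pass were Trim30a, Rsad2, Ifitm3, Bst2, Rtp4, Siglec1, Lgals3bp, Lgals9, Pml, Sp100 and Tor3a. Of the 30 calls 13 held under every one of 25 alternative ways of processing the arrays, and 17 were lost under 1 to 14 of them. The count fell to 16 without WT CM replicate 3, to 17 without Camkk2-/- CM replicate 1 and to 18 without Camkk2-/- CM replicate 2 or 3.

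In RM, the same comparison of genotypes gave 2 higher members, Xaf1 and Ifi27l2a, and 0 lower, where 0.446% of all genes were higher and 0.292% lower. Without adjustment of p, 6 were higher and 1, Bst2, was lower, where 4.82% and 3.38% of all genes were. Their median log2 fold change was 0.27, against 0.02 over all genes. The arrays of the genotypes did not overlap for 2 members, Xaf1 and Epsti1, an order that 2.61% of all genes had.

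**Figure D2:**
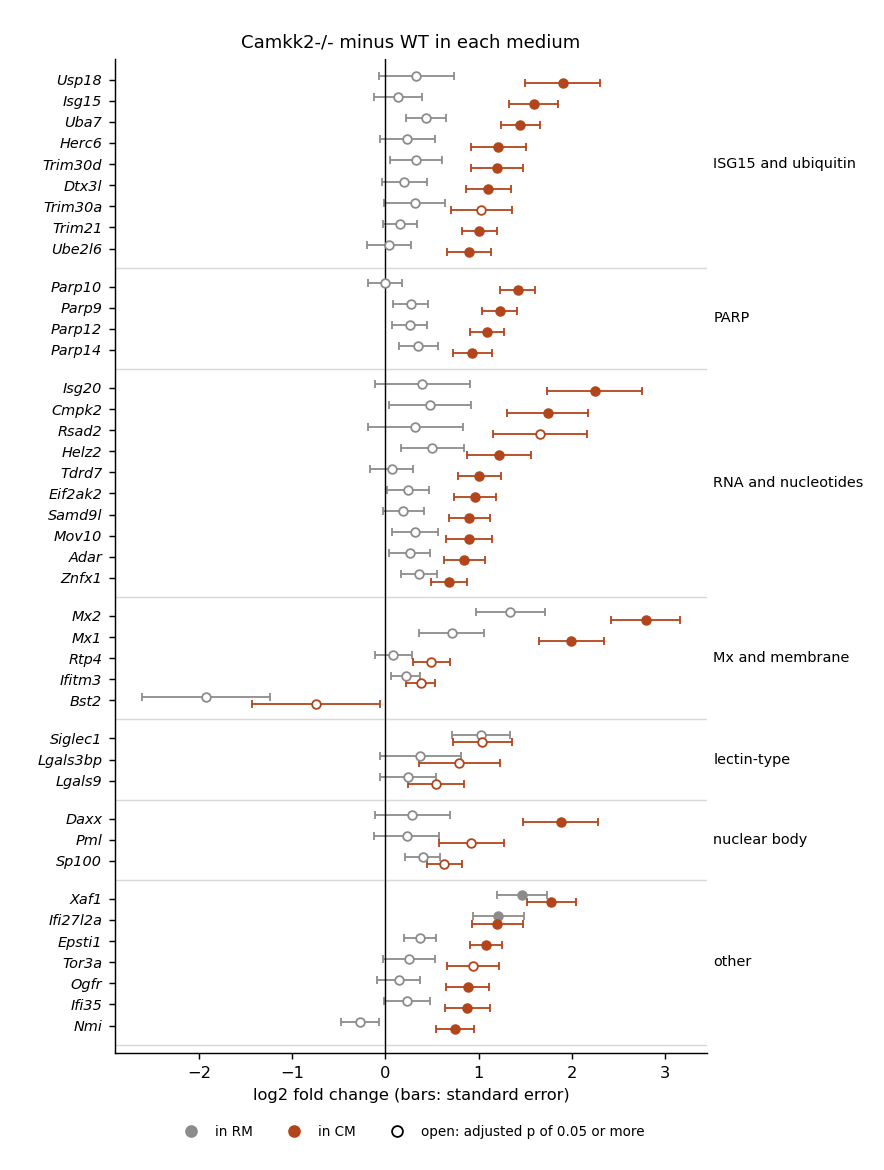
Log2 fold change of Camkk2-/- over WT (x axis) for the 41 members (y axis, by role), in RM (gray) and in CM (red), with standard errors as bars and filled points for an adjusted p under 0.05. In CM 30 points are filled and only Bst2 lies below 0, and in RM 2 are filled.

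CM raised the set in both genotypes. In WT BMDM 23 of the 41 members rose and 0 fell, where 2.21% of all genes rose and 0.697% fell. Without adjustment of p, 38 rose, against 9.04% of all genes. Their median log2 fold change was 0.89, against 0.04 over all genes. In Camkk2-/- BMDM 39 rose and 0 fell, where 6.13% of all genes rose and 5.37% fell. All 41 rose without adjustment of p, against 12.2% of all genes, and the median was 1.72, against 0.01. The members that did not pass with adjustment were Siglec1 (adjusted p = 0.0972) and Lgals3bp (adjusted p = 0.058). In both genotypes all 41 values were above 0, as were 56.1% of those of all genes in WT and 51.1% in Camkk2-/- BMDM. The arrays of the media did not overlap for 18 members in WT and 39 in Camkk2-/- BMDM, orders that 4.83% and 9.48% of all genes had. The count in WT rested on single cultures. It was 36 without WT CM replicate 3, 11 without WT RM replicate 1 or WT CM replicate 2 or 4, and 13 without WT RM replicate 2 or WT CM replicate 1.

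**Figure D3:**
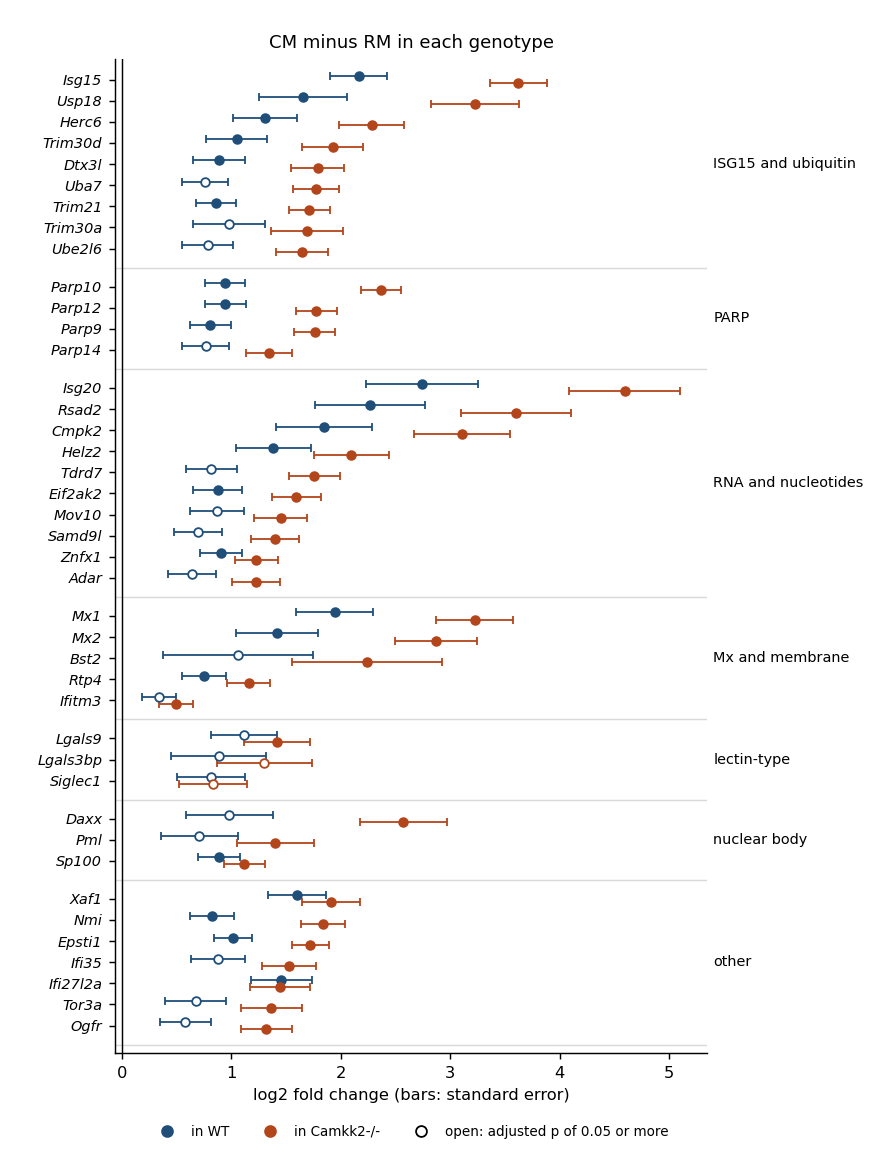
Log2 fold change of CM over RM (x axis) for the 41 members (y axis, by role), in WT (blue) and in Camkk2-/- BMDM (red), with standard errors as bars and filled points for an adjusted p under 0.05. All values are above 0, with 23 filled points in WT and 39 in Camkk2-/- BMDM.

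Whether the genotype difference itself differed between the media was tested as an interaction. It was above 0 for 40 of the 41 members and for 45.9% of all genes, with a median of 0.74 (−0.03 over all genes). At an adjusted p under 0.05, 1 member passed, Parp10, with a value above 0, where 0.0513% of all genes passed above 0 and 0.0923% below. Without adjustment of p, 21 members passed and all were above 0, against 3.49% of all genes. The interaction shares its 16 arrays with the comparisons above. For most members, therefore, a difference between genotypes that passed in CM and not in RM was not shown to be a difference between the media.

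The genes of ISG15 conjugation and related ubiquitin ligases came first by role. ISG15 is joined to target proteins by the activating enzyme UBA7, the conjugating enzyme UBE2L6 and, in the mouse, the ligase HERC6, and is removed by USP18, which also restrains signaling at the interferon receptor. Of 9 members, 8 were higher in Camkk2-/- CM-BMDM and 0 in RM, and CM raised 6 in WT and all 9 in Camkk2-/- BMDM. Their log2 fold changes between genotypes in CM ran from 0.90 to 1.90.

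Isg15 had log2 signals of 8.14, 9.01, 9.06 and 8.39 in WT RM and 8.89, 9.20, 8.47 and 8.58 in Camkk2-/- RM. In CM it had 10.91, 11.22, 10.20 and 10.92 in WT and 12.72, 12.63, 12.53 and 11.75 in Camkk2-/- BMDM. The genotypes overlapped in RM and stood apart in CM, where every CM array lay above every RM array. The difference between genotypes was 0.14 in RM (standard error 0.26, adjusted p = 0.968) and 1.59 in CM (standard error 0.26, adjusted p = 0.000766), a 3.02-fold difference. CM raised it 4.49-fold in WT and 12.3-fold in Camkk2-/- BMDM.

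Usp18, the remover of ISG15, was 3.74-fold higher in Camkk2-/- than in WT CM-BMDM (adjusted p = 0.00666), and Uba7 was 2.73-fold higher (adjusted p = 0.000333). Herc6 (2.31-fold) and Ube2l6 (1.87-fold) also passed. Among the tripartite-motif genes, Trim21, whose product binds antibody-coated virus in the cytosol, was 2.01-fold higher, and Trim30d 2.30-fold. Trim30a, known to restrain Toll-like receptor signaling, had a similar value of 2.04-fold and did not pass (adjusted p = 0.0904). Dtx3l, a ubiquitin ligase that works as a pair with PARP9, was 2.15-fold higher. Of the 40 measured genes nearest to Trim30a, 5 were higher in the same comparison, Trim30d and its relatives Trim6, Trim12a, Trim12c and Trim30b.

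The ADP-ribosyltransferase genes encode enzymes that attach ADP-ribose to proteins and, in several cases, act on viral RNA or on host translation. All 4 were higher in Camkk2-/- CM-BMDM and 0 in RM, and CM raised 3 in WT and 4 in Camkk2-/- BMDM. Parp9, Parp12 and Parp14 were 2.34-fold, 2.13-fold and 1.91-fold higher in Camkk2-/- CM-BMDM.

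Parp10, which encodes an enzyme that adds single ADP-ribose units, had log2 signals of 11.95, 11.99, 12.51 and 12.24 in WT RM and 11.90, 12.14, 12.22 and 12.40 in Camkk2-/- RM. In CM they were 13.11, 13.48, 12.62 and 13.25 in WT and 14.48, 14.55, 14.61 and 14.50 in Camkk2-/- BMDM. The RM arrays of the genotypes covered nearly the same range, while in CM the Camkk2-/- arrays were tightly grouped and above all others. Its difference between genotypes was −0.01 in RM (standard error 0.18, adjusted p = 0.997) and 1.42 in CM (standard error 0.18, adjusted p = 0.000102). The interaction was 1.43 (standard error 0.26, adjusted p = 0.025). Over 24 alternative ways of processing the arrays it stayed between 1.26 and 1.55 and passed in 15, with adjusted p-values of 0.011 to 0.0621. It did not pass without WT RM replicate 3 or 4, Camkk2-/- RM replicate 1 or 2, WT CM replicate 1 or 3, or Camkk2-/- CM replicate 1, 2 or 3.

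Dtx3l, Parp9 and Parp14 are neighbors on chromosome 16. Of the 40 measured genes nearest to Parp9, 12 differed between genotypes in CM, 11 of them higher. Besides Parp14 and Dtx3l the higher ones were the stefin genes Stfa2, Stfa2l1, Stfa3, Csta2, Csta3, Cstdc4, Cstdc5 and Cstdc6, with log2 fold changes of 1.48 to 1.69, and Cd86, a costimulatory ligand of T cells (1.30). The integrin gene Itgb5 was lower (−0.70). Stefins are inhibitors of cathepsins. What these neighbors share with the members was not tested.

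Genes acting on nucleotides, RNA and translation formed the largest role, with 10 measured members. In CM 9 of them were higher in Camkk2-/- BMDM, and in RM 0 were. CM raised 6 in WT and all 10 in Camkk2-/- BMDM. Their differences between genotypes in CM ran from 0.68 for Znfx1, an RNA helicase gene, to 2.25 for Isg20.

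Isg20 encodes an exonuclease that degrades single-stranded RNA. Its log2 signals were 9.70, 10.56, 11.24 and 10.46 in WT RM and 9.83, 11.56, 11.07 and 11.08 in Camkk2-/- RM. In CM they were 14.43, 14.03, 11.15 and 13.33 in WT and 15.59, 15.68, 15.70 and 14.94 in Camkk2-/- BMDM. WT CM replicate 3 lay within the RM range, below the rest of its group, and the Camkk2-/- CM arrays lay above all others. The difference between genotypes was 0.40 in RM (standard error 0.51, adjusted p = 0.947) and 2.25 in CM (standard error 0.51, adjusted p = 0.0116). In CM it was 4.74-fold, and with trend and robust variance estimates the adjusted p was 0.0536. Without WT CM replicate 3 the difference in CM was 1.55 (2.93-fold, adjusted p = 0.0217) and the rise in WT was 3.44 (10.8-fold). CM raised it by 2.74 in WT and 4.59 in Camkk2-/- BMDM, or 6.69-fold and 24.1-fold, the largest rises among the 41 members in both genotypes.

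Rsad2 encodes viperin, which makes a chain-terminating nucleotide that stops viral polymerases. Its log2 signals were 10.98, 12.60, 13.31 and 12.74 in WT RM and 11.37, 12.38, 13.31 and 13.87 in Camkk2-/- RM. With CM they were 15.32, 15.13, 13.24 and 15.02 in WT and 16.39, 16.38, 16.47 and 16.10 in Camkk2-/- BMDM. The genotypes stood apart in CM without overlap and again replicate 3 of WT CM was far below its group. The difference was 1.66 in CM (standard error 0.51, adjusted p = 0.0708) and 0.32 in RM (standard error 0.51, adjusted p = 0.962), so Rsad2 did not pass in either. It passed in CM under 3 of 25 alternatives, without WT RM replicate 1 (adjusted p = 0.0358), without Camkk2-/- RM replicate 1 (adjusted p = 0.0398) and in a fit to the 8 CM arrays alone (adjusted p = 0.0253). Over all of them its adjusted p ran from 0.0253 to 0.251. CM raised it 4.81-fold in WT (adjusted p = 0.0148) and 12.1-fold in Camkk2-/- BMDM (adjusted p = 4.14e-05). The call in WT was lost without WT RM replicate 1 or WT CM replicate 2 or 4.

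Cmpk2, the neighbor of Rsad2 and the gene of a mitochondrial nucleotide kinase, was 3.34-fold higher in Camkk2-/- CM-BMDM (adjusted p = 0.0238). Helz2, which encodes a helicase, was 2.33-fold higher, and Tdrd7, whose product holds back virus-induced autophagy, 2.01-fold. Eif2ak2, the gene of the kinase PKR that stops translation on sensing double-stranded RNA, was 1.95-fold higher. Samd9l and Mov10, a growth-restraining factor and an RNA helicase, were both 1.87-fold higher. Adar, whose product edits adenosines in double-stranded RNA, was 1.80-fold higher. The Mov10 arrays of the genotypes overlapped and those of the other members named in this paragraph did not. Helz2 (adjusted p = 0.0469) and Znfx1 (adjusted p = 0.0482) were called under 11 of 25 alternatives each, and both were lost with repeated quantile normalization and with centring of the arrays. Mov10 was called under 17, Cmpk2 under 19, and Adar and Samd9l under 21.

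Among the Mx GTPases and the membrane restriction factors, 2 of 5 members were higher in Camkk2-/- CM-BMDM and 0 passed in RM, and CM raised 3 in WT and all 5 in Camkk2-/- BMDM. Mx proteins are dynamin-like GTPases that bind viral nucleocapsids. The RefSeq annotation of GRCm38.p6, made from C57BL/6J mice, lists both Mx1 and Mx2 as transcribed pseudogenes, since this strain and many other laboratory strains carry inactive alleles. The arrays measured their RNA.

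Mx2 had the largest difference between genotypes in CM. Its log2 signals were 8.74, 9.95, 10.49 and 10.75 in WT RM, and 10.37, 11.39, 11.69 and 11.86 in Camkk2-/- RM. In CM they were 11.73, 11.80, 10.58 and 11.50 in WT and 14.39, 14.40, 14.14 and 13.85 in Camkk2-/- BMDM. Camkk2-/- RM and WT CM arrays covered a similar range, and the Camkk2-/- CM arrays lay above every other array. The difference was 2.79 in CM (6.92-fold, standard error 0.37, adjusted p = 0.000139) and 1.34 in RM (standard error 0.37, adjusted p = 0.137). In RM it passed under 1 of 25 alternatives (adjusted p of 0.0365 to 0.377), without Camkk2-/- RM replicate 1, where it was 1.66. CM raised it by 2.87 in Camkk2-/- BMDM (adjusted p = 1.74e-05) and by 1.42 in WT (adjusted p = 0.0433), where the call held under 12 of 25 alternatives. Leaving out WT RM replicate 1 or 2, Camkk2-/- RM replicate 2, WT CM replicate 1, 2 or 4, or Camkk2-/- CM replicate 1, 2 or 3 was among the alternatives that ended it.

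Mx1 had log2 signals of 10.78, 11.57, 12.60 and 12.02 in WT RM, and 11.90, 12.70, 12.19 and 13.03 in Camkk2-/- RM. In CM the values were 14.33, 13.94, 12.65 and 13.82 in WT and 15.73, 15.85, 15.75 and 15.38 in Camkk2-/- BMDM. The order of the groups was that of Mx2, with the genotypes overlapping in RM and apart in CM. The difference was 1.99 in CM (3.98-fold, standard error 0.35, adjusted p = 0.00143) and 0.71 in RM (standard error 0.35, adjusted p = 0.622). CM raised it 3.85-fold in WT and 9.34-fold in Camkk2-/- BMDM.

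Bst2 encodes tetherin, which holds budding virus at the cell surface. It was the one member whose difference between genotypes was below 0 in CM, and its arrays split within a genotype. In RM, 3 members were below 0, Bst2, Nmi (−0.27) and Parp10 (−0.01). The log2 signals in RM were 15.52, 16.02, 16.21 and 16.30 in WT and 12.42, 12.52, 15.24 and 16.17 in Camkk2-/- BMDM. In CM they were 16.70, 17.26, 16.84 and 17.50 in WT and 15.14, 15.08, 17.06 and 18.03 in Camkk2-/- BMDM. Camkk2-/- replicates 1 and 2 were lower than replicates 3 and 4 in both media. The WT RM arrays had the same order with a smaller gap, from 16.02 to 16.21, and the WT CM arrays did not have it. In the Camkk2-/- arrays the smallest gap between the low and the high pair within a medium was 1.92. Among all 19505 genes, 2 had a gap in this order of at least this size, Bst2 and the junction gene Plekha7 (1.93). No other member had the order in the Camkk2-/- arrays of both media.

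The mean difference of Bst2 between genotypes was −0.75 in CM (standard error 0.69, adjusted p = 0.703) and −1.93 in RM (standard error 0.69, adjusted p = 0.336), and it passed under none of 25 alternatives. A term in the fit that set replicates 1 and 2 apart from 3 and 4, added after this split was seen, gave adjusted p-values of 0.5 and 0.0654. CM raised Bst2 by 2.24 in Camkk2-/- BMDM (standard error 0.69, adjusted p = 0.0388). This call held under 16 of 25 alternatives (adjusted p of 0.00274 to 0.143), and was lost, among others, without WT RM replicate 2, Camkk2-/- RM replicate 1 or 2, or Camkk2-/- CM replicate 3 or 4. Without Camkk2-/- RM replicate 4 the rise was 2.93. Of the 40 measured genes nearest to Bst2, 4 had the same order of Camkk2-/- arrays, with a gap of at most 0.41. The share of all genes with this order at any gap was not counted, so no reading is drawn from these 4. Which mice gave replicates 1 and 2 is not given, and the cause of the split was not tested.

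Ifitm3, whose product blocks virus entry at endosomes, had the smallest difference between genotypes in CM among the members with a value above 0, with group means of 17.12 ± 0.19 in WT RM, 17.34 ± 0.20 in Camkk2-/- RM, 17.46 ± 0.20 in WT CM and 17.83 ± 0.09 in Camkk2-/- CM (SD, n = 4). Its difference in CM was 0.38 (adjusted p = 0.22). Rtp4, an interferon-induced transporter-like protein, had 12.26 ± 0.47, 12.34 ± 0.26, 13.01 ± 0.16 and 13.50 ± 0.09 in the same order, a difference in CM of 0.49 (adjusted p = 0.209). For both genes the CM arrays of the genotypes did not overlap, but the differences did not pass the test.

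Of the 3 lectin-type genes of the cell surface or the secreted fraction, 0 passed between genotypes in either medium, 0 rose with CM in WT and 1 rose in Camkk2-/- BMDM, Lgals9. Lgals9 encodes galectin-9, a ligand of TIM-3. Its group means were 13.73 ± 0.53 in WT RM, 13.97 ± 0.41 in Camkk2-/- RM, 14.85 ± 0.74 in WT CM and 15.39 ± 0.11 in Camkk2-/- CM, a difference in CM of 0.54 (adjusted p = 0.433). Siglec1, a sialic acid receptor of macrophages, had nearly the same difference between genotypes in both media, 1.04 in CM (adjusted p = 0.0651) and 1.03 in RM (adjusted p = 0.199). Lgals3bp, which encodes a secreted galectin-binding glycoprotein, had a difference of 0.79 in CM (adjusted p = 0.422).

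The nuclear body genes Pml, Sp100 and Daxx encode proteins that gather in PML bodies and silence incoming viral DNA. Daxx was 3.68-fold higher in Camkk2-/- CM-BMDM (adjusted p = 0.00707), at 13.41 ± 0.37 against 11.53 ± 1.09 in WT (SD, n = 4), and did not pass in RM. Sp100 was 1.55-fold (adjusted p = 0.0632) and Pml 1.90-fold (adjusted p = 0.174) in the same comparison. CM raised all 3 in Camkk2-/- BMDM and Sp100 alone in WT.

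Of 7 other interferon-induced genes, 6 were higher in Camkk2-/- CM-BMDM, and the 2 members that passed in RM, Xaf1 and Ifi27l2a, were among them. CM raised 4 in WT and all 7 in Camkk2-/- BMDM. Epsti1, a gene of epithelial-stromal interaction, was 2.12-fold higher in Camkk2-/- CM-BMDM. Ogfr, the opioid growth factor receptor, and Ifi35 were both 1.84-fold higher, and Nmi, whose product pairs with IFI35, 1.68-fold. These calls held under 18 of 25 alternatives for Ogfr, 14 for Ifi35 and 17 for Nmi, and that of Nmi was lost without any single one of the 8 CM arrays. Tor3a, of the torsin family, was 1.93-fold and did not pass (adjusted p = 0.0598).

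Xaf1, whose product opposes the apoptosis inhibitor XIAP, had log2 signals of 12.14, 12.40, 13.39 and 13.11 in WT RM and 13.49, 14.41, 14.50 and 14.50 in Camkk2-/- RM. In CM they were 14.60, 14.39, 13.92 and 14.51 in WT and 16.37, 16.15, 16.17 and 15.86 in Camkk2-/- BMDM. The genotypes stood apart in both media, and the Camkk2-/- RM arrays lay at the level of WT CM. The difference was 1.47 in RM (2.76-fold, standard error 0.26, adjusted p = 0.00592) and 1.78 in CM (3.44-fold, standard error 0.26, adjusted p = 0.00036). The interaction was 0.31 (adjusted p = 0.907). Xaf1 passed in RM under all 25 alternatives, with adjusted p-values of 0.00123 to 0.0349. Among the 40 measured genes nearest to Xaf1 on chromosome 11, 0 were higher and 2 were lower in Camkk2-/- RM-BMDM, the inflammasome gene Nlrp1a (−2.45) and Nlrp1c-ps (−4.39). In CM 0 were higher and 3 were lower, Nlrp1a (−2.55), Nlrp1c-ps (−4.01) and C1qbp (−1.03). What these neighbors share with Xaf1 was not tested.

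Ifi27l2a, a small interferon-induced membrane protein gene, had log2 signals of 12.36, 11.68, 11.21 and 11.38 in WT RM and 13.15, 13.47, 12.78 and 12.08 in Camkk2-/- RM. In CM they were 12.99, 12.87, 13.41 and 13.19 in WT and 14.41, 14.39, 14.67 and 13.80 in Camkk2-/- BMDM. WT CM replicate 3, the lowest of its group for most members, was here the highest. The genotypes overlapped in RM through WT replicate 1 and Camkk2-/- replicate 4, and stood apart in CM. The difference was 1.21 in RM (2.32-fold, standard error 0.28, adjusted p = 0.0406) and 1.20 in CM (2.30-fold, adjusted p = 0.0129), with an interaction of −0.01 (adjusted p = 0.996). In RM it passed under 13 of 25 alternatives, with adjusted p-values of 0.00551 to 0.18. Among others, it was lost without WT RM replicate 2, 3 or 4, without Camkk2-/- RM replicate 1, 2 or 3, without WT CM replicate 4, and without Camkk2-/- CM replicate 1 or 2. In CM its call was lost without Camkk2-/- CM replicate 3 (adjusted p = 0.0575).

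**Figure D4:**
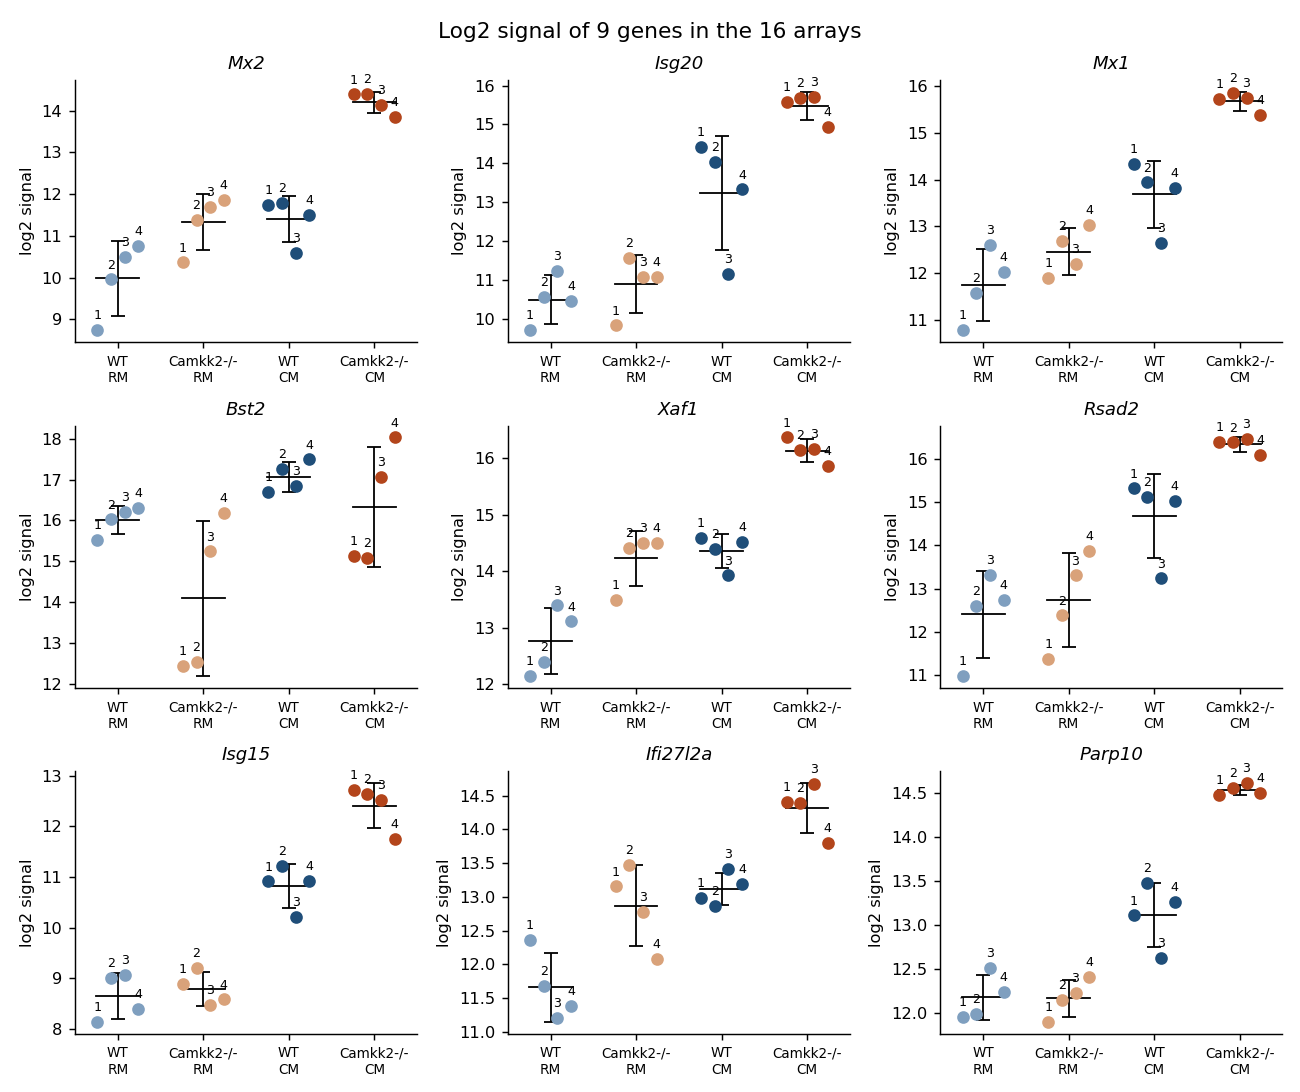
Log2 signal (y axis) of 9 members in the 4 groups (x axis), with the replicate number at each point and bars for the mean and SD of 4 arrays. For 8 genes all Camkk2-/- CM arrays lie above the WT CM arrays, while for Bst2 Camkk2-/- replicates 1 and 2 lie below replicates 3 and 4 in both media.

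Single cultures moved the set as a whole. WT CM replicate 3 was the lowest of its group for 37 of the 41 members, with a median difference of −0.89 from the other 3 arrays, against −0.02 over all genes. Camkk2-/- RM replicate 1 was the lowest of its group for 36 members and Camkk2-/- CM replicate 4 for 34. In WT RM replicate 3 was the highest for 34. The mean of the set in CM differed between genotypes by 1.13, and by 0.90 to 1.24 when each array was left out in turn.

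The other genes of the pathway gave the surroundings of these values. Of 21 interferon ligand genes 19 were measured, and 0 passed in any of the 5 comparisons (limma). Without adjustment of p, 0 differed between genotypes in CM, 1 was higher and 1 lower in RM, and 1 in WT and 2 in Camkk2-/- BMDM were higher with CM. Their mean signal was 4.40 to 4.53 by group, below the background median of 5.37. For 13 ligand genes no array exceeded that median, for 5 some arrays did, and Ifna5, an interferon alpha gene, exceeded it in all 16, with group means of 7.38 to 7.48 and a difference in CM of −0.07 (standard error 0.19, adjusted p = 0.926). Ifnb1, the gene of interferon beta, had group means of 4.20 to 4.70 and was one of the 13. For these 13 genes a difference in RNA was not detectable at this signal.

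Of 7 genes of the receptor chains and their kinases, 1 was higher in Camkk2-/- CM-BMDM, the kinase gene Jak2 (1.03, standard error 0.23, adjusted p = 0.0111), and 0 passed in RM. Ifnar1 had a difference of 0.61 in CM (adjusted p = 0.0564) and 0.73 in RM (adjusted p = 0.063). Ifnar2 had 0.33, Ifngr1 0.12 and Ifngr2 −0.04 in CM, none of them past the test. Among 6 measured transcription factor genes, Stat2 (1.14, adjusted p = 0.00436) and Irf1 (1.09, adjusted p = 0.000843) were higher in Camkk2-/- CM-BMDM and 0 passed in RM. Of 5 inhibitors of interferon signaling, Socs1, which blocks JAK kinases, was higher by 2.04 in CM (standard error 0.30, adjusted p = 0.000329), with an interaction of 1.98 (adjusted p = 0.0714).

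The changes of members with and without an ISRE core are given side by side, and their difference was not tested. The median difference between genotypes in CM was 1.01 for the 11 measured members with an ISRE core, 6 of them called, and 1.00 for the 20 without one, 17 of them called. For CM over RM in Camkk2-/- BMDM the medians were 1.71 and 1.75. Members without a match in these windows include Isg20, Daxx and Xaf1, and a match farther away or with other letters was not searched.

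Markers of other cells that a marrow culture can hold were set beside these values. The mean log2 signal of 7 measured markers of inflammatory monocytes ranged from 9.57 to 11.0 in WT RM, 10.6 to 11.7 in Camkk2-/- RM, 11.1 to 13.4 in WT CM and 12.8 to 13.7 in Camkk2-/- CM. Between genotypes in CM 1 of the 7 was higher, Plac8 (3.41, adjusted p = 4.19e-05), and 0 were lower, with Fn1 (−0.60) and F13a1 (−0.42) below 0. Fn1, the gene of fibronectin, was higher in Camkk2-/- RM-BMDM (2.70) and fell with CM in Camkk2-/- BMDM (−2.39). The mean of 11 neutrophil markers ranged from 8.52 to 9.45, 8.85 to 9.91, 9.82 to 11.0 and 10.7 to 11.9 in the same order. In CM 2 of these differed, Cxcr2 (0.94) and Csf3r (0.93), both higher in Camkk2-/- BMDM, and the granule gene Camp lay below the background median in every array. The lowest WT CM value of both lists was that of replicate 3.

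Of 6 markers of plasmacytoid dendritic cells, cells known for making type I interferon, Siglech (1.51, adjusted p = 0.0113) and Ccr9 (3.31, adjusted p = 0.00037) were higher in Camkk2-/- CM-BMDM, and Bst2 is itself on that list. In RM the mean of the 6 ranged from 9.89 to 10.4 in WT and from 9.72 to 10.9 in Camkk2-/- BMDM. In CM the mean ranged from 9.69 to 10.1 in WT and from 10.6 to 11.4 in Camkk2-/- BMDM. Ccr9 lay at 5.38 to 6.37 in WT RM and at 5.52, 4.21, 3.72 and 5.08 in WT CM. Only the first of these WT CM values exceeded the background median. In Camkk2-/- BMDM Ccr9 ran from 6.15 to 8.51 in RM and from 6.88 to 9.15 in CM. For 7 markers of conventional dendritic cells the mean lay between 5.77 and 6.34 in all arrays, and in CM 1 was lower in Camkk2-/- BMDM, Itgax (−1.47, adjusted p = 0.00476), and 0 were higher. Flt3, Zbtb46, Xcr1, Clec9a and Cd209a of this list lay below the background median in every array. A difference in their RNA was not detectable at this signal. Of 6 T and NK cell markers and 4 B cell markers 0 differed between genotypes in CM, and their means stayed within 4.96 to 6.14 and 4.85 to 6.00. The mean of 7 macrophage markers was 15.6 to 15.8 in both CM groups, with Adgre1 lower by a log2 fold change of −0.58 in Camkk2-/- CM-BMDM (adjusted p = 0.0292). Of 5 markers of mammary epithelial cells, Epcam, Krt8, Krt18 and Krt19 lay below the background median in every array. Cdh1, the gene of E-cadherin, ran from 5.36 to 5.58 in WT RM, 5.65 to 6.94 in Camkk2-/- RM, 5.19 to 6.27 in WT CM and 7.45 to 8.59 in Camkk2-/- CM, and was higher by 2.34 in Camkk2-/- CM-BMDM (adjusted p = 5.41e-05). The part of these cells in the differences was not tested, and in bulk RNA more cells of a type and more RNA per cell cannot be told apart.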

How the data were processed

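RNA of 16 BMDM cultures was measured on mouse Affymetrix GeneChip arrays after labeling with the WT Plus kit. The values that the authors deposited are on the log2 scale, 1 signal for each probe set. Affymetrix Expression Console is named in the submitters' processing notes. Its version, the summarization, the normalization and the genome build are not stated in the labels or methods, so any compression of low or high signal by these steps is unknown. Of 28846 probe sets, 19572 carried exactly 1 symbol in the probe annotation, and for 55 genes with several the probe set of highest mean was kept. The resulting 19505 genes were not filtered on signal. As background, 23 antigenomic probe sets had means of 2.48 to 6.82.

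Groups came from the sample titles. Linear models with 1 coefficient per group and no covariates were fitted to all 16 arrays with limma 3.58.1 (R 4.3.3) and moderated with eBayes. Benjamini-Hochberg adjustment ran over all 19505 genes, and genes were called at an adjusted p under 0.05. No p was computed for the set as a whole. The code was tested on simulated arrays. Promoters were searched and figures drawn with Python 3.11.15, pandas 2.3.3 and matplotlib 3.10.9. Neighbors were the 20 nearest measured genes on each side in the order of GRCm38.p6.

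The members and all gene lists were chosen with earlier results of these data known. Values in every array are given for members among the 3 with the largest change in a comparison of groups, called between genotypes in RM, or passing the interaction, and group means for the 3 with the smallest difference between genotypes in CM. Other pathway genes are named if called between genotypes in CM or if they encode a receptor chain or interferon beta. Alternatives were repeated quantile normalization, centring of arrays on their median, dropping the 40% dimmest genes, the mean over probe sets, trend and robust variance, array weights, the replicate number as a block, a fit to the 8 arrays of a comparison, each array left out in turn, an adjusted p under 0.01, and, added after the data were seen, a term that sets replicates 1 and 2 apart from 3 and 4.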

Additional observations from a re-analysis of the deposited data

Results flagged for a closer look

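In a group of 4 arrays, a lowest or highest value was singled out where its gap to the next value, as a share of the group's range, exceeded Dixon's critical value. Chance alone singles out a value in about 1 in 20 groups, and 17 of the 168 groups tested held one. The groups are not independent, because the members and their mean were read on the same arrays. The count therefore cannot be held against that share as a test. The causes were not tested.

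WT CM replicate 3 was low for the mean of the members (−0.53, against 0.36 to 0.50 in the other 3 arrays) and for Uba7 (10.2), Herc6 (13.4), Dtx3l (11.3), Parp9 (10.6), Rsad2 (13.2), Adar (12.6) and Helz2 (11.3). Camkk2-/- CM replicate 4 was low for the mean (1.09, against 1.39 to 1.40) and for Dtx3l (13.1), Adar (13.9), Isg20 (14.9), Helz2 (13.2) and Ifi35 (12.3). Camkk2-/- RM replicate 1 was low for the mean (−1.09, against −0.50 to −0.38) and for Znfx1 (13.7) and Xaf1 (13.5).

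Parp10 was the member whose difference between genotypes differed between the media by the interaction test (1.43, adjusted p = 0.025 with limma, 0.011 to 0.0621 over the alternatives).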

How the results depend on the processing

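The count of members higher in Camkk2-/- than in WT CM-BMDM, 30, was 26 to 33 under the other normalizations, filters, variance settings and fits, 13 at an adjusted p under 0.01, and 16 to 31 when each array was left out. The 2 members higher in RM became 1, Xaf1, with repeated quantile normalization, with array weights, in the fit to 8 arrays and at an adjusted p under 0.01, and 1 to 2 without single arrays. The 23 members that CM raised in WT became 11 in the fit to 8 arrays, 8 at an adjusted p under 0.01 and 11 to 36 without single arrays. The 39 raised in Camkk2-/- BMDM ranged from 36 to 40 under all alternatives and from 37 to 40 without single arrays. The interaction gave 0 members at an adjusted p under 0.01 and 0 to 1 without single arrays. The mean over the members differed by 0.90 to 1.24 between genotypes in CM, 0.17 to 0.47 between genotypes in RM, 0.96 to 1.33 between media in WT and 1.76 to 2.00 between media in Camkk2-/- BMDM without single arrays. With the adjusted p under 0.01 left aside, members called under every other alternative numbered 13, 1, 9, 37 and 0 in these comparisons. The order is genotype in CM, genotype in RM, medium in WT, medium in Camkk2-/- and interaction. For the 9 members given in every array, 1062 of 1116 repeated values kept their side of the threshold. Of the rest, 49 fell short of it and 5 newly passed it, and 0 passed in the opposite direction. Small values that did not pass could change sign. In RM the difference between genotypes ran from −0.15 to 0.78 for Rsad2, −0.03 to 0.27 for Isg15 and −0.09 to 0.10 for Parp10. The interaction of Ifi27l2a ran from −0.28 to 0.19.

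Replicate numbers are shared by the groups. The correlation of same-numbered deviations from the group means ran from −0.15 to 0.23. Over 0.1 were 0 to 3 of the 4 pairs of a comparison. The numbers were not treated as pairs in the main fit. Whether cultures with the same number shared marrow is not stated. With the replicate number as a block the counts were 26, 2, 21, 38 and 1 in the same order. Samples correlated best with their own number in 1 of 4 cases between genotypes in CM and 2 of 4 in RM. Between the media it was 3 of 4 cases in WT and 3 of 4 in Camkk2-/- BMDM. Pairing of the RM and CM cultures was not tested further. Low signal limits the 13 interferon ligand genes with no array above the background median, and not the members.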
